A study of Mus musculus with 72 samples.

Results

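The genes described here encode the proteasome, the protease that degrades ubiquitin-tagged proteins, together with its immunoproteasome subunits and its activators. They were taken by symbol from an RNA table of 25124 genes, in which all 41 were found, and from a table of 51983 accessible regions (ATAC-seq peaks), of which 89 were assigned to a member and lay within 50 kb of its start site. By role they comprise 7 alpha ring subunits, 4 beta ring subunits without the 3 constitutive catalytic ones, the 3 constitutive catalytic subunits (Psmb5, Psmb6 and Psmb7), the 3 immunoproteasome catalytic subunits (Psmb8, Psmb9 and Psmb10), 6 ATPases and 11 non-ATPase subunits of the regulatory cap, 3 chaperones of cap assembly and 4 activators (Psme1 to Psme4). All 41 genes and all 89 peaks passed the filters on low values. Members were taken by gene name and not by their values, but the set was chosen with earlier results of these data known.

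The core particle of the proteasome is a barrel of stacked alpha and beta rings whose catalytic beta subunits cut the protein fed into it, and the regulatory cap recognises, unfolds and translocates the substrate. In cells exposed to interferon, and in many immune cells without it, the catalytic subunits Psmb8, Psmb9 and Psmb10 are built into new core particles in place of Psmb5, Psmb6 and Psmb7. This immunoproteasome, often capped by the interferon-induced activator made of Psme1 and Psme2, produces peptides suited to presentation on MHC class I, which macrophages carry.

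The cells were RAW264.7, a mouse macrophage-like line whose labels give the genotype BALB/c, and no agent was added. Every group carried a lentiviral short hairpin RNA: shGFP, the control, against the jellyfish protein GFP, shNCOR against the corepressor NCOR (gene Ncor1), and shSMRT against the related corepressor SMRT. Each hairpin had 3 RNA-seq libraries (polyA RNA) and 3 ATAC-seq libraries. The labels name neither clones nor pools for the infected cells, so the loss of a target and another difference between separately infected populations cannot be told apart. Nothing in them says whether the 3 libraries of a group are separate cultures. The p-values therefore reflect library-to-library spread that may be technical.

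Ncor1 was at 18.4, 20.2 and 18.7 RPKM in the 3 shGFP libraries, at 3.61, 4.20 and 4.30 in shNCOR and at 18.9, 20.2 and 20.2 in shSMRT, where RPKM is the read count scaled to exon length and library depth. The shNCOR libraries were therefore the ones with low Ncor1, as their labels say, and this gives no check of the shSMRT or ATAC labels. All 8 macrophage markers examined were above 1 RPKM in every library. The 9 markers of T, B, NK, granulocyte, mast, fibroblast, epithelial and endothelial cells reached at most 0.056 RPKM, with Ncr1, Cpa3, Pdgfra and Epcam at 0 in all 9 libraries. The summed macrophage markers were 7093 to 7242 RPKM in shGFP, 8222 to 8510 in shNCOR and 10023 to 10558 in shSMRT, and their part in the results below was not tested. Most of that sum was Lyz2, at 5149.6 to 8363 RPKM over the 9 libraries, while Cd68 was at 484 to 524 and Ptprc at 39.2 to 52.0. The RNA libraries held 39.15 to 49.09 M reads and the ATAC libraries 6.06 to 10.84 M. The RNA was measured in bulk, so fewer cells that express a gene and less of its RNA per cell cannot be told apart.

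Promoters are shown for the immunoproteasome catalytic subunits, Psmb5 as a constitutive counterpart and the 2 genes with the lowest fold change in shSMRT. Each is the 200 bases before the annotated start site, read 5′ to 3′ on the strand of the gene, from RefSeq (mm10). Capitals mark matches to the letter patterns searched on both strands: GAS (TTCNNNGAA), ISRE (GAAA, any 2 bases, GAAA), ARE (TGACNNNGC), CCAAT, ETS (CCGGAAG) and NRF1 (GCGCA, any base, GCGC). A match on the other strand is printed as its reverse complement, such as ATTGG for CCAAT. These are the patterns named for interferon-gamma-activated sites, interferon-stimulated genes, the factors NRF1 and NRF2 encoded by Nfe2l1 and Nfe2l2, nuclear factor Y, ETS factors and nuclear respiratory factor 1. The last of these shares its short name with the product of Nfe2l1 and is a different protein. A match is a description of letters and not evidence of binding.
Psmb8 (chr17:34197995-34198194, + strand): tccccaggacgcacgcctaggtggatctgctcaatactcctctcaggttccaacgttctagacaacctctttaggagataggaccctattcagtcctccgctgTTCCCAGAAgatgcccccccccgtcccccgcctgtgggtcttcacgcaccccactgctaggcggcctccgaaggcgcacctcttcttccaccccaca
Psmb9 (chr17:34187331-34187530, - strand): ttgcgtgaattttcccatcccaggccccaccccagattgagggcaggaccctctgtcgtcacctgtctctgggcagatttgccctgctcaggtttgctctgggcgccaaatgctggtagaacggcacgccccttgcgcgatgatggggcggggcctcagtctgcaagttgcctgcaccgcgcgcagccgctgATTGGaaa
Psmb10 (chr8:105938393-105938592, - strand): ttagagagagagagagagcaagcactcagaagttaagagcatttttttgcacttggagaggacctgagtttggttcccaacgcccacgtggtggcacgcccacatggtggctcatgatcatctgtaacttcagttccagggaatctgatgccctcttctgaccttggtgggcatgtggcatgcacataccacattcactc
Psmb5 (chr14:54617996-54618195, - strand): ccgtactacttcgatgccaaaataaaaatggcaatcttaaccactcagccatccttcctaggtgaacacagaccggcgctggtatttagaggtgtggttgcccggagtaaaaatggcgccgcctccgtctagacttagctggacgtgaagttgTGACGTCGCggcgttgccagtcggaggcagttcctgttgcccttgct
Psma1 (chr7:114276117-114276316, - strand): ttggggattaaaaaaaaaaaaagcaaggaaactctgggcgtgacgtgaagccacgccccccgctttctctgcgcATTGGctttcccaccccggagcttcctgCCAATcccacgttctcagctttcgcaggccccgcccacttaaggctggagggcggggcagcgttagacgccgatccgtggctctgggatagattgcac
Psme3 (chr11:101316013-101316212, + strand): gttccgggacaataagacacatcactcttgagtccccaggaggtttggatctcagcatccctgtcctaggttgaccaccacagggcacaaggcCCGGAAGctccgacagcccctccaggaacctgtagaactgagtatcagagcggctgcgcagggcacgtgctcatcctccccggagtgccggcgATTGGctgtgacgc
The window of Psmb8 held a GAS match at -97 to -89 and that of Psmb9 a CCAAT match at -8 to -4, counted from the start site. The window of Psmb10 held none of the 6 patterns. However, 0 of its 200 bases lay in an ATAC peak, against 80 at Psmb8 and 200 at Psmb9. Whether the annotated start of Psmb10 is the one used in these cells was not tested. That of Psmb5 held an ARE match at -47 to -39, that of Psma1 a pair of CCAAT matches, and that of Psme3 an ETS match and a CCAAT match. Promoters were found for 35 of the 41 members. ETS matches were present in 11 of these 35 (31.4%) against 6.29% of the 32851 windows searched, and NRF1 matches in 6 (17.1%) against 3.49%. The 32851 windows were not limited to expressed genes or matched for base composition. Whether such shares are particular to proteasome genes was therefore not tested. CCAAT was present in 31.4% of members and 29.3% of all windows, and ISRE in 8.57% (Psmb3, Psmd4 and Psmd9) against 2.27%. GAS was present in 2.86% of members (Psmb8 only) against 5.49%, and ARE in 8.57% (Psmb5, Psmb6 and Psmd9) against 8.60%.

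In the shGFP cells the constitutive core was expressed at higher levels than the immunoproteasome subunits. The median of the gene means was 181.2 RPKM for the alpha ring, 202.8 for the structural beta subunits, 186.9 for the constitutive catalytic subunits, 126.9 for the ATPases and 106.7 for the non-ATPase cap subunits. It was 45.67 RPKM for Psmb8, Psmb9 and Psmb10, with Psmb8 the highest of them (79.24) and Psmb9 the lowest (27.67). The highest member was Psmb4 at 336.1 ± 9.89 RPKM (SD, n = 3) and the lowest was Psme4, a nuclear activator, at 12.9 ± 0.517. Besides Psmb9, Psmb10 and Psme4, the members under 50 RPKM were the 3 cap chaperones Psmd5, Psmd9 and Psmd10.

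**Figure D1:**
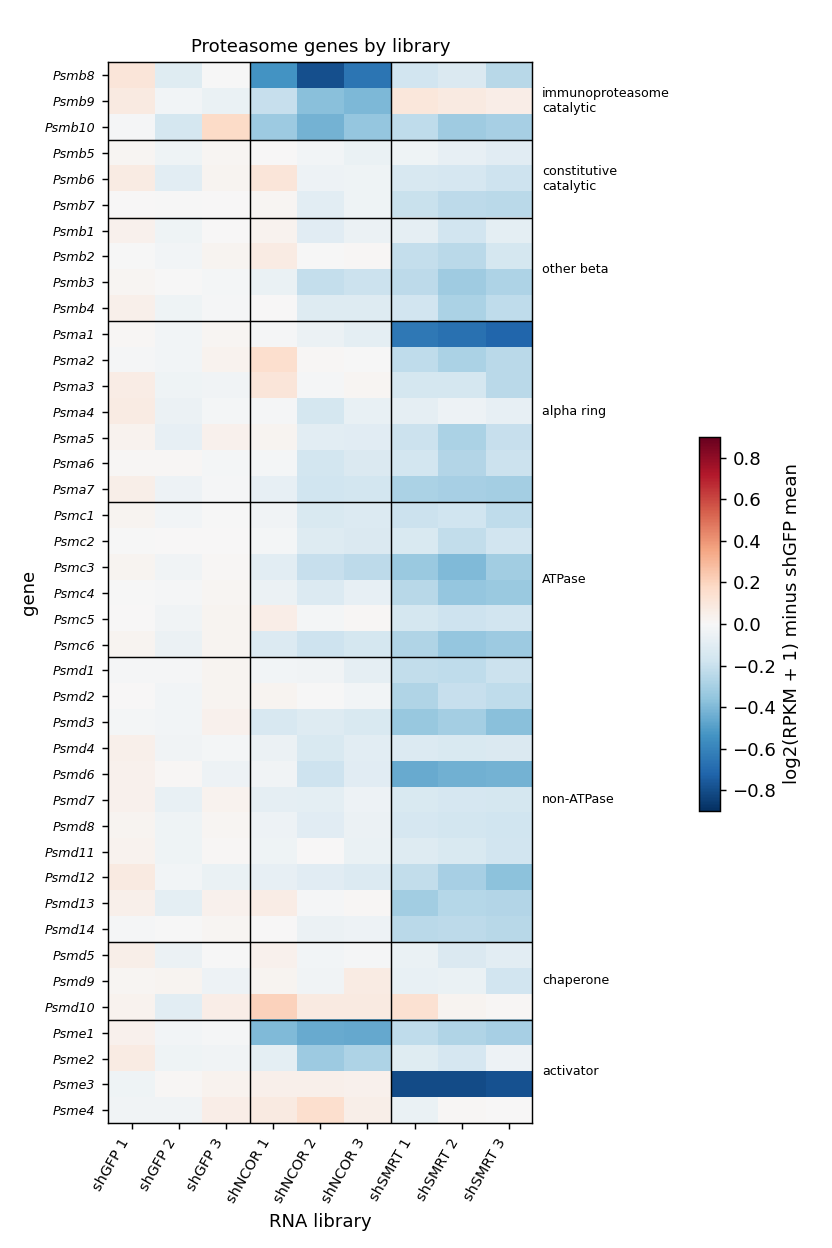
Heat map of log2(RPKM + 1) minus the shGFP mean for the 41 genes (rows, grouped by role) in the 9 RNA libraries (columns). The shNCOR columns are darkest blue (lower) at Psmb8, Psmb9, Psmb10, Psme1 and Psme2, and the shSMRT columns are blue in most rows and darkest at Psma1 and Psme3.

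No member was called higher in either knockdown, and the members with the lowest fold changes differed: Psmb8, Psme1, Psmb10 and Psmb9 in shNCOR, and Psme3, Psma1, Psmd6 and Psmc3 in shSMRT. A call here means a p under 0.05 after Benjamini-Hochberg adjustment in a limma fit of log2(RPKM + 1) across 10789 genes and all 9 libraries. In shNCOR 13 of 41 members (31.7%) were called lower and 0 higher, where 20.0% of all tested genes were called lower and 17.6% higher. In shSMRT 34 of 41 (82.9%) were called lower and 0 higher, against a background of 31.4% lower and 24.4% higher. At an unadjusted p under 0.05 in the same fit 1 member was higher in shNCOR (Psmd10) and 0 in shSMRT, and limma voom on recovered reads called 0 higher in either. The median log2 fold change of the members was -0.070 in shNCOR and -0.21 in shSMRT, beside 0.0020 and -0.022 for all tested genes. Since most members are highly expressed, the same counts were taken over genes with a mean of at least 50 RPKM. Among those, 11 of 35 members (31.4%) were lower in shNCOR against 29.1% of 1716 genes, a share near the background, and 32 of 35 (91.4%) in shSMRT against 57.2%. The median log2 fold change of these 35 members was -0.070 in shNCOR and -0.23 in shSMRT. That of the 1716 genes was -0.019 and -0.12. Members also had shorter exons than other genes, with a median of 1327 bases against 2652. With the trend of expression with exon length removed in each library, which was added after the data were seen, 14 members were lower in shNCOR and 31 in shSMRT. Under quantile normalization the median of the members in shSMRT was -0.11 and 27 were lower.

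All 3 immunoproteasome catalytic subunits were lower in shNCOR, where their fold changes ranked 1, 3 and 4 from the lowest among the 41 members, while 0 of their 3 constitutive counterparts were called and 0 reached an unadjusted p under 0.05 in the same limma fit. Psmb8, the subunit that takes the place of Psmb5 (chr17:34198195-34201454), was at 85.5, 73.2 and 79.0 RPKM in shGFP, at 54.1, 45.3 and 49.7 in shNCOR and at 70.0, 72.3 and 66.4 in shSMRT. All shNCOR values were below all others. It fell by 0.66 ± 0.066 on the log2 scale (SE) in shNCOR with an adjusted p of 1.62e-05 in the limma fit, the lowest fold change of the 41 members. In shSMRT its log2 fold change was -0.18 ± 0.066 (adjusted p = 0.0357). That call was lost without shGFP 1 (adjusted p = 0.141), shGFP 3 (0.0760), shSMRT 1 (0.0689) or shSMRT 3 (0.121), and under quantile normalization (0.314), without a filter (0.0866) and with the exon length trend removed (0.120).

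Psmb9, which replaces Psmb6 (chr17:34182099-34187330), was at 29.4, 27.2 and 26.5 RPKM in shGFP, at 23.8, 21.1 and 20.6 in shNCOR and at 29.8, 29.3 and 28.8 in shSMRT. The shNCOR libraries were again below all others, while shGFP and shSMRT overlapped. Its log2 fold change was -0.33 ± 0.054 in shNCOR (adjusted p = 0.000599) and 0.080 ± 0.054 in shSMRT (adjusted p = 0.224), the highest of the 41 members there. With the exon length trend removed it was 0.14 in shSMRT and was called (adjusted p = 0.0162). Psmb10, which replaces Psmb7 (chr8:105935728-105938392), was at 45.1, 40.6 and 51.2 RPKM in shGFP, at 36.1, 33.6 and 35.4 in shNCOR and at 38.6, 36.3 and 36.7 in shSMRT. Both knockdowns lay below the control, by 0.37 ± 0.067 (adjusted p = 0.00131) and 0.28 ± 0.067 (adjusted p = 0.00406) on the log2 scale. Compared directly, shSMRT exceeded shNCOR by 0.48 ± 0.066 for Psmb8 and 0.41 ± 0.054 for Psmb9 (adjusted p = 0.000117 and 7.81e-05), and by 0.085 ± 0.067 for Psmb10, which was not called (0.316).

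Psmb5 was at 129, 124 and 129 RPKM in shGFP, at 128, 125 and 122 in shNCOR and at 124, 121 and 118 in shSMRT, and the groups overlapped. Its log2 fold changes of -0.026 ± 0.029 and -0.070 ± 0.029 were not called (adjusted p = 0.516 and 0.0595). The second was called without shGFP 2 (0.0311). Psmb5 overlaps Mir686 on the same strand, which was listed at up to 202 RPKM. Psmb6 was at 196, 175 and 189 RPKM in shGFP, at 201, 181 and 182 in shNCOR and at 168, 168 and 164 in shSMRT. Only the shSMRT group lay below the control, by 0.16 ± 0.049 on the log2 scale (adjusted p = 0.0153), and this call was lost under quantile normalization (0.312) and without shGFP 1 (0.0660), shGFP 3 (0.0512) or shSMRT 3 (0.0512). Psmb7 was at 209.5, 208.7 and 209.97 RPKM in shGFP, at 212, 196 and 203 in shNCOR and at 182, 177 and 177 in shSMRT. It fell by 0.23 ± 0.030 in shSMRT (adjusted p = 6.48e-05) and was not called in shNCOR (-0.041 ± 0.030, 0.310).

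**Figure D2:**
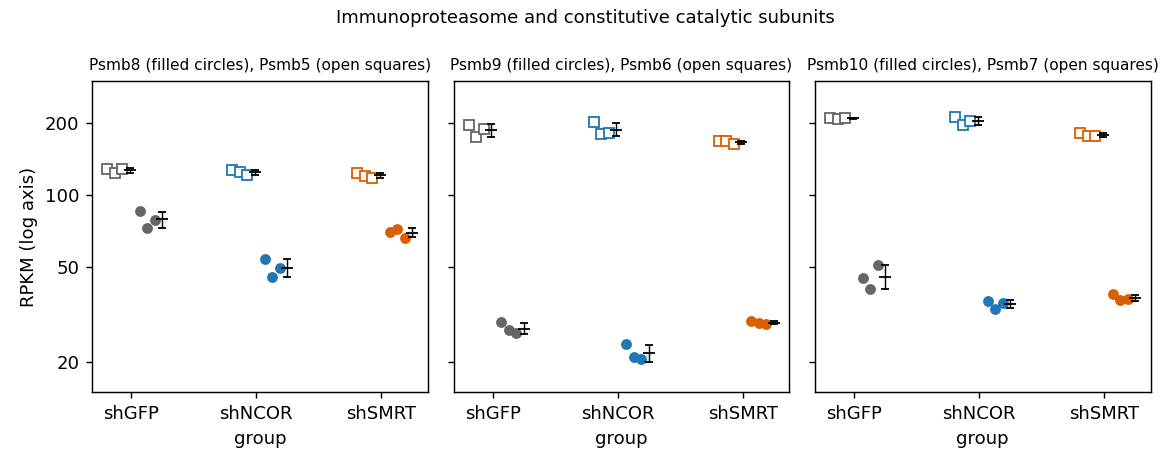
RPKM (log axis) of each immunoproteasome catalytic subunit (filled circles) and its constitutive counterpart (open squares) by group, 1 point per library, with the mean ± SD of 3 libraries in black. Psmb8 falls from 73.2 to 85.5 RPKM in shGFP to 45.3 to 54.1 in shNCOR while Psmb5 stays between 118 and 129 in all 9 libraries.

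The balance between the paired subunits was measured within each library, where both genes share the library's scaling. Psmb8 made up 39.9%, 37.2% and 38.0% of the summed RPKM of Psmb8 and Psmb5 in shGFP, 29.8%, 26.6% and 29.0% in shNCOR and 36.2%, 37.5% and 35.9% in shSMRT. The log2 ratio of Psmb8 to Psmb5 averaged -0.68 ± 0.084 (SD, n = 3) in shGFP, -1.31 ± 0.11 in shNCOR and -0.79 ± 0.051 in shSMRT. Psmb9 made up 13.0%, 13.5% and 12.3% of its pair in shGFP, 10.6%, 10.4% and 10.2% in shNCOR and 15.0%, 14.8% and 14.9% in shSMRT, so its 3 groups were fully apart and the knockdowns lay on opposite sides of the control. In shSMRT the RNA of Psmb9 itself was not called (0.080 ± 0.054), while that of Psmb6 was called lower (-0.16 ± 0.049). Psmb10 made up 17.7%, 16.3% and 19.6% in shGFP, 14.6%, 14.6% and 14.8% in shNCOR and 17.5%, 17.0% and 17.2% in shSMRT. The 3 groups differed in each pair by an exact permutation test over the 9 libraries (1680 arrangements), with p = 0.00714, 0.00357 and 0.0250 for the Psmb8, Psmb9 and Psmb10 ratios, adjusted over the 3 pairs to 0.0107, 0.0107 and 0.0250. For Psmb10 the adjusted value rose to 0.0536 without shNCOR 1 and to 0.0536 without shNCOR 2. Between single pairs of groups, the difference of shNCOR from shGFP was -0.64, -0.34 and -0.33 in the log2 ratio, each with the groups apart and an exact two-sided permutation p of 0.10, the smallest that 3 against 3 libraries allow. The difference of shSMRT from shGFP was -0.11 (exact p = 0.20), 0.24 (0.10) and -0.055 (0.70). Without shGFP 3 the last of these was 0.027.

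Among the activators, Psme1 and Psme2 were lower in shNCOR, Psme1 and Psme3 in shSMRT, and Psme4 in neither. Psme1 and Psme2 encode the alternating subunits of the interferon-induced cap. Psme1 (chr14:55578494-55581527) was at 109.7, 105 and 106 RPKM in shGFP, at 80.9, 78.1 and 77.5 in shNCOR and at 91.2, 88.6 and 87.0 in shSMRT, with no overlap among the 3 groups. It fell by 0.44 ± 0.029 on the log2 scale in shNCOR (adjusted p = 6.19e-07) and by 0.27 ± 0.029 in shSMRT (1.98e-05). Psme2 (chr14:55587440-55591021) was at 98.5, 91.3 and 91.5 RPKM in shGFP, at 88.0, 74.7 and 77.1 in shNCOR and at 87.0, 84.3 and 90.8 in shSMRT. It fell by 0.23 ± 0.056 in shNCOR (adjusted p = 0.00783), and its -0.10 ± 0.056 in shSMRT was not called (0.153). Psme2 has a near-identical copy, Psme2b, at 28.1 ± 0.948, 22.3 ± 0.453 and 27.3 ± 0.796 RPKM, and reads of the 2 genes may have been split between them. Psme1 overlaps Emc9 on the other strand, which reached 9.64 RPKM, and strand was not used in counting.

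Psme3, the subunit of a nuclear activator that is not induced by interferon, was lower in shSMRT alone. At chr11:101316213-101323537, it was at 92.9, 96.2 and 97.7 RPKM in shGFP, at 98.8, 98.8 and 98.4 in shNCOR and at 54.3, 54.3 and 55.0 in shSMRT. It fell by 0.80 ± 0.026 on the log2 scale in shSMRT (adjusted p = 1.82e-09), the lowest fold change of all members, and was not called in shNCOR (0.046 ± 0.026, 0.194). Psme4 was not called in either knockdown (0.095 ± 0.043 and -0.017 ± 0.043).

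Among the constitutive core subunits, Psma1 stood lowest in shSMRT. Psma1 (chr7:114264550-114276116), an alpha ring subunit, was at 189.6, 185 and 191 RPKM in shGFP, at 187, 182 and 177 in shNCOR and at 120.3, 118 and 115 in shSMRT. The shSMRT values lay far below both other groups, with a log2 fold change of -0.68 ± 0.029 (adjusted p = 1.25e-08). Of the 7 alpha subunits, 6 were lower in shSMRT (from -0.68 for Psma1 to -0.19 for Psma3) and Psma4 was not called (-0.066 ± 0.042). In shSMRT 31.4% of all tested genes were called lower, and 57.2% of those with a mean of at least 50 RPKM. In shNCOR these shares were 20.0% and 29.1%. Psma7 was the 1 alpha subunit lower in shNCOR (-0.14 ± 0.034, adjusted p = 0.00709), at 267, 250 and 256 RPKM in shGFP against 244, 227 and 229.7. Psma4 overlaps the antisense gene AY074887, which reached 20.8 RPKM. All 4 structural beta subunits were lower in shSMRT, from -0.28 ± 0.040 for Psmb3 to -0.12 ± 0.039 for Psmb1, whose change was 0.0075 under quantile normalization. The call of Psmb1 was also lost without shGFP 1 (adjusted p = 0.0878), shGFP 3 (0.0624) or shSMRT 2 (0.102) and with the exon length trend removed (0.167). Psmb3 was the 1 structural beta subunit lower in shNCOR (-0.16 ± 0.040, adjusted p = 0.00865).

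In the regulatory cap, all 6 ATPases, which unfold the substrate, and all 11 non-ATPase subunits were called lower in shSMRT, where 31.4% of all tested genes and 57.2% of those with a mean of at least 50 RPKM were, with class medians of -0.26 and -0.23 on the log2 scale. The ATPase with the lowest fold change was Psmc3, at 141, 135 and 139 RPKM in shGFP, 129, 119 and 117 in shNCOR and 109.5, 105 and 111 in shSMRT, a log2 change of -0.35 ± 0.039 in shSMRT (adjusted p = 2.08e-05) and -0.18 ± 0.039 in shNCOR (0.00399). The 3 groups of Psmc3 were apart from each other. Psmc5 had the smallest fall in shSMRT (0.17 ± 0.027) and was not called in shNCOR (0.016 ± 0.027).

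Psmd6, a lid subunit (chr14:14112185-14120945), was at 114, 111 and 107 RPKM in shGFP, at 108, 97.2 and 103 in shNCOR and at 80.5, 81.5 and 82.1 in shSMRT. It fell by 0.44 ± 0.038 in shSMRT (adjusted p = 3.48e-06), the lowest among the non-ATPase subunits, and Psmd4, a ubiquitin receptor of the cap, fell least (0.13 ± 0.030, 0.00354). The call of Psmd4 in shSMRT was lost under quantile normalization (0.176). In shNCOR 3 ATPases (Psmc1, Psmc3 and Psmc6) and 3 non-ATPase subunits (Psmd3, Psmd4 and Psmd6) were called lower, by 0.18 or less on the log2 scale. These 6 of 17 cap subunits (35.3%) stand beside 20.0% of all tested genes and 29.1% of those with a mean of at least 50 RPKM. Psmd3 was lower by 0.13 ± 0.028 and Psmc6 by 0.16 ± 0.032. The calls of Psmc1 (-0.097), Psmd4 (-0.094) and Psmd6 (-0.11) in shNCOR were the least secure. Psmc1 lost its call without shGFP 1 (0.105), shGFP 3 (0.0818), shNCOR 2 (0.121) or shNCOR 3 (0.108). Psmd4 lost it without shGFP 1 (0.110), shGFP 3 (0.0519), shNCOR 2 (0.106) or shNCOR 3 (0.0719), and Psmd6 without shGFP 1 (0.156), shGFP 2 (0.111), shNCOR 2 (0.180) or shNCOR 3 (0.09997), and its 2 groups overlapped.

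The 3 cap chaperones, which help assemble the base of the cap and are absent from the finished particle, had 1 call between them. Psmd5 was lower in shSMRT (-0.094 ± 0.036, adjusted p = 0.0424) and not called in shNCOR, at 34.7, 32.1 and 33.2 RPKM in shGFP against 31.9, 30.4 and 31.2 in shSMRT. That call was lost without shGFP 1 (0.161), shGFP 3 (0.0867), shSMRT 2 (0.139) or shSMRT 3 (0.0871) and under TMM scaling (0.0581), among other settings. Psmd10 (gankyrin) was at 29.9, 27.4 and 30.6 RPKM in shGFP and at 33.9, 31.0 and 31.1 in shNCOR, and its 0.12 ± 0.051 was not called (0.0819).

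**Figure D3:**
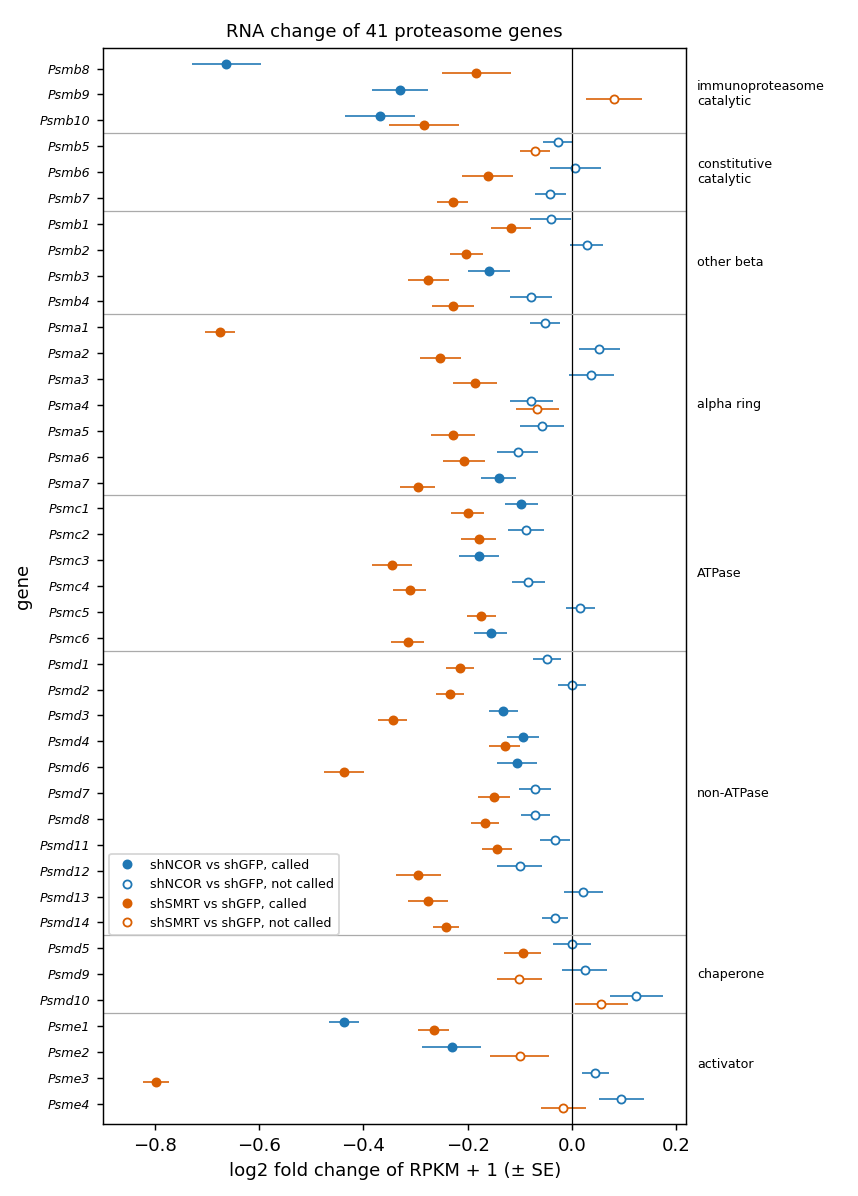
Log2 fold change of RPKM + 1 (± SE) against shGFP for each of the 41 genes, grouped by role, in shNCOR (blue) and shSMRT (orange), with filled points called at an adjusted p under 0.05. In shNCOR the lowest points are Psmb8, Psme1, Psmb10, Psmb9 and Psme2, and in shSMRT they are Psme3, Psma1 and Psmd6, with 34 of 41 points filled.

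The knockdowns were also compared directly. In shSMRT relative to shNCOR 3 members were higher, Psmb8, Psmb9 and Psme1 (0.17 ± 0.029 for Psme1, adjusted p = 0.000538), and 30 were lower, where 22.8% of all tested genes were called higher and 29.0% lower. Among genes with a mean of at least 50 RPKM, 27 of 35 members (77.1%) were lower against 52.3% of 1716 genes. The lower members included all 6 ATPases (Psmc1 was at 0.016 under quantile normalization), 9 of 11 non-ATPase subunits, 6 of 7 alpha subunits and Psme3 (-0.84 ± 0.026). The comparisons with shGFP share their control libraries. The 13 members called lower in shNCOR were Psma7, Psmb3, Psmb8, Psmb9, Psmb10, Psmc1, Psmc3, Psmc6, Psmd3, Psmd4, Psmd6, Psme1 and Psme2, and the 7 not called in shSMRT were Psma4, Psmb5, Psmb9, Psmd9, Psmd10, Psme2 and Psme4. Psmb10 alone among the immunoproteasome subunits did not differ between the knockdowns past the threshold.

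Other genes of the pathway were described from lists chosen with earlier results known, whose counts stand beside a background of 17.6% of all tested genes higher and 20.0% lower in shNCOR, and 24.4% and 31.4% in shSMRT. Of 5 assembly chaperones of the core, 0 were higher and 2 lower in shNCOR (Psmg3 and Psmg4), and 4 were lower in shSMRT. The call of Psmg3 in shNCOR was lost without shGFP 1 (adjusted p = 0.0997) or shNCOR 2 (0.104), and that of Psmg4 in shSMRT without shGFP 1 (0.0624) or shSMRT 2 (0.0633). Psmg1 was at 44.8, 39.6 and 44.6 RPKM in shGFP and at 31.3, 32.4 and 31.8 in shSMRT (-0.42 ± 0.056, adjusted p = 8.24e-05), and it was called in shNCOR only without shGFP 2 (0.0210) or shNCOR 1 (0.0206). Of 15 proteasome-bound proteins, deubiquitinases and shuttle factors, 2 were higher and 5 lower in shNCOR, and 3 were higher and 8 lower in shSMRT, where 24.4% of all tested genes were higher and 31.4% lower. Zfand2a, a stress-induced proteasome-binding protein, rose in both, by 0.28 ± 0.040 and 0.20 ± 0.040 (adjusted p = 0.000209 and 0.00133). Psmf1, an inhibitor of the core, fell by 0.14 ± 0.041 in shNCOR (0.0179) and 0.30 ± 0.041 in shSMRT (9.82e-05). Its call in shNCOR was lost without shGFP 2 (0.0660), shGFP 3 (0.0546), shNCOR 2 (0.0551) or shNCOR 3 (0.0597).

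Of 5 genes that control proteasome transcription or its main factor, Nfe2l1 itself was not called. It was at 44.4, 45.1 and 45.4 RPKM in shGFP, 44.7, 43.1 and 44.2 in shNCOR and 44.5, 43.7 and 44.9 in shSMRT, and the groups overlapped. Nfe2l2, which encodes NRF2, rose in both, by 0.16 ± 0.027 and 0.14 ± 0.027 on the log2 scale (adjusted p = 0.000742 and 0.00104). Vcp, the segregase that delivers substrates to the proteasome, fell in shSMRT by 0.27 ± 0.032 (3.09e-05), as did Ngly1, which removes glycans from the Nfe2l1 product (0.30 ± 0.072, 0.00481), and neither was called in shNCOR.

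Of 8 listed genes of peptide transport and interferon control, 7 were lower and 0 higher in shNCOR, where 20.0% and 17.6% of all tested genes were, with a median log2 fold change of -0.45, while in shSMRT 3 were higher and 3 lower, against 24.4% and 31.4% of all tested genes, with a median of 0.10. The list was chosen with results of these data known and its counts are a description. All 8 were called higher in shSMRT than in shNCOR, where 22.8% of all tested genes were called higher and 29.0% lower. Irf9, the DNA-binding subunit of a factor that binds ISRE sequences, was at 17.7, 18.9 and 18.8 RPKM in shGFP, 6.58, 7.27 and 7.68 in shNCOR and 14.7, 16.4 and 17.8 in shSMRT (-1.25 ± 0.068 in shNCOR, adjusted p = 1.12e-07). Its -0.17 ± 0.068 in shSMRT (0.0482) lost the call without shGFP 2 (0.120), shGFP 3 (0.122), shSMRT 1 (0.192) or shSMRT 2 (0.0881). Stat2 fell by 0.18 ± 0.045 in shNCOR (0.00932) and rose by 0.16 ± 0.045 in shSMRT (0.00965). Tap1, a peptide transporter subunit that shares a promoter region with Psmb9, was at 12.1, 10.8 and 12.0 RPKM in shGFP and at 8.20, 7.06 and 7.21 in shNCOR (-0.57 ± 0.069, adjusted p = 6.53e-05). In shSMRT it was at 9.80, 11.1 and 9.55, and that call (-0.18 ± 0.069, 0.0430) was lost without shGFP 1 (0.127), shGFP 3 (0.124), shSMRT 1 (0.120) or shSMRT 3 (0.145). Its partner Tap2 was at 16.0, 13.6 and 15.5 RPKM in shGFP and 16.0, 14.3 and 15.7 in shNCOR, where the groups overlapped, and rose in shSMRT to 18.0, 17.9 and 18.0 (0.24 ± 0.058, 0.00400).

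Of 9 ubiquitin and ubiquitin-like genes, Ubd was listed at 0 in every library and 8 were tested. In shNCOR 6 were lower and 1 higher, and in shSMRT 4 were lower and 2 higher. Usp18, the protease that removes the interferon-induced modifier ISG15, was at 17.5, 17.7 and 19.0 RPKM in shGFP, 2.48, 2.51 and 2.31 in shNCOR and 12.4, 12.6 and 14.6 in shSMRT (-2.47 ± 0.062 and -0.43 ± 0.062, adjusted p = 2.71e-10 and 0.000145). ISG15 itself (Isg15) was at 8.54, 9.82 and 9.39 RPKM in shGFP, 1.598, 0.782 and 1.18 in shNCOR and 4.87, 7.34 and 5.91 in shSMRT (-2.24 ± 0.14 and -0.55 ± 0.14). Ube2l6, the conjugating enzyme of ISG15, fell by 0.66 ± 0.065 in shNCOR and rose by 0.35 ± 0.065 in shSMRT (adjusted p = 1.33e-05 and 0.000833).

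No start-site peak of an immunoproteasome catalytic gene was called in either knockdown. ATAC values are the reads in a peak after scaling each library to 10 M, tested on log2(value + 5) across 51469 peaks. A peak covered the start site of 39 of the 41 members, and none lay over that of Psmb10 or Psmc1. The authors' annotation assigned 5 of the 39 to a neighbouring gene, such as Tap1 for Psmb9. In shNCOR 0 of these 39 peaks were called in the limma fit, where 3.06% of all promoter peaks were called higher and 1.43% lower. At an unadjusted p under 0.05, 3 of the 39 were higher (Psmb2, Psmb3 and Psmd4) and 0 lower, and limma voom on recovered reads called 1 higher. In shSMRT 11 of 39 (28.2%) were lower and 0 higher, against 22.7% and 1.52% of promoter peaks, so the share was near that of promoters at large. The median log2 change of the 39 peaks in shSMRT was -0.22, beside -0.20 for all 9192 promoter peaks. Peaks held 47.6% to 49.9% of the ATAC reads in shSMRT, 50.6% to 54.0% in shGFP and 54.7% to 55.7% in shNCOR, and the part of this difference in the counts was not tested.

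The peak over the Psmb8 start site (chr17:34198136-34198423) was at 38.0, 63.8 and 60.9 in shGFP, at 58.1, 61.1 and 45.7 in shNCOR and at 55.4, 39.7 and 56.6 in shSMRT, and the groups overlapped. Its log2 fold change was 0.039 ± 0.22 in shNCOR and -0.076 ± 0.22 in shSMRT (adjusted p = 0.945 and 0.852). A larger peak just upstream (chr17:34197404-34198015) was at 142, 148 and 164 in shGFP, 152, 150.2 and 131 in shNCOR and 128, 141 and 110.4 in shSMRT and was not called either (-0.069 ± 0.13 and -0.26 ± 0.13). The peak shared by Psmb9 and Tap1 (chr17:34187150-34187919) was at 289.6, 264 and 278 in shGFP, 308, 248 and 270.2 in shNCOR and 226, 261 and 270.2 in shSMRT (-0.015 ± 0.099 and -0.14 ± 0.099, adjusted p = 0.953 and 0.368). The only peak of Psmb10 within 50 kb, centred 1257 bases into the gene in an intron (chr8:105936912-105937358), was at 172, 171 and 151 in shGFP, 166, 199.7 and 152 in shNCOR and 114, 147 and 151 in shSMRT and was not called against shGFP (0.060 ± 0.12 and -0.26 ± 0.12). The remaining peak assigned to an immunoproteasome catalytic gene within 50 kb, on chr17, had the lowest fold change of these peaks in shNCOR. It changed by -0.47 there, with every shNCOR library below the control, and by -0.28 in shSMRT, and was not called in either. With a standard error of 0.22 at the Psmb8 start site, a change as small as that of other start-site peaks was not detectable there.

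The start-site peaks called lower in shSMRT were those of Psma1, Psma7, Psmb5, Psmb6, Psmc4, Psmc6, Psmd7, Psmd11, Psmd12, Psmd14 and Psme1. The RNA of 10 of these 11 was lower too, Psmb5 being the exception, but so was that of 32 of the 39 genes whatever their peak. The peak of Psmb5 was at 67.1, 70.3 and 81.2 in shGFP, 80.5, 67.7 and 72.3 in shNCOR and 48.8, 45.4 and 48.1 in shSMRT (-0.57 ± 0.19 in shSMRT, adjusted p = 0.0271). This call was lost under TMM scaling (0.0603) and without shGFP 1 (0.0528), shGFP 2 (0.0564), shGFP 3 (0.133), shSMRT 1 (0.0558) or shSMRT 2 (0.0676). The peak of Psmb6 was at 183, 191 and 201 in shGFP, 211, 201 and 203 in shNCOR and 162, 139.5 and 136 in shSMRT (-0.39 ± 0.11, 0.0109). It lost its call without shGFP 3 (0.0656) or shSMRT 3 (0.0514) and under quantile normalization (0.114). The calls at Psma1 (-0.36 ± 0.12, 0.0319) and Psme1 (-0.37 ± 0.13, 0.0378) were lost under TMM scaling (0.110 and 0.118). At Psma1 the call was also lost without shGFP 1 (0.172), shGFP 2 (0.0921), shSMRT 1 (0.0940) or shSMRT 2 (0.155), and at Psme1 without shGFP 1 (0.178), shGFP 3 (0.0944), shSMRT 1 (0.114), shSMRT 2 (0.0512) or shSMRT 3 (0.0789). Psme3, whose RNA fell most, had a start-site peak that was not called in shSMRT (-0.16 ± 0.14, 0.459), and its groups of 146, 164 and 121 in shGFP and 135, 94.2 and 161 in shSMRT overlapped. Across the 39 genes the RNA and start-site changes had a Pearson r of 0.27 in shNCOR and 0.24 in shSMRT, a description over genes that share libraries and are not independent replicates.

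**Figure D4:**
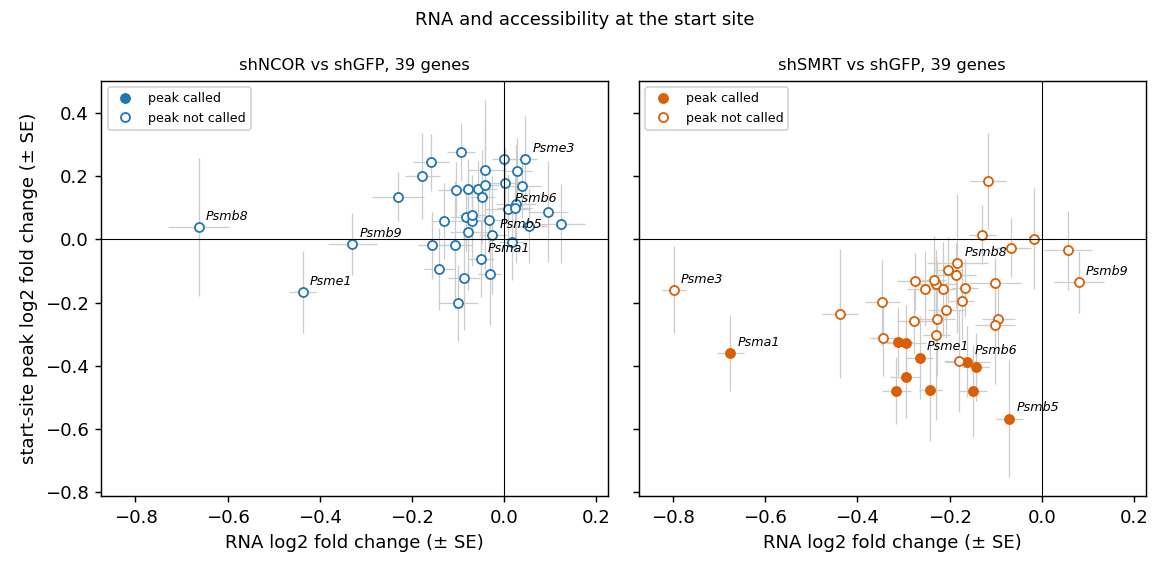
Log2 fold change (± SE) of RNA (x axis) and of the ATAC peak over the start site (y axis) against shGFP for 39 genes, in shNCOR (left) and shSMRT (right), with filled points for called peaks. In shNCOR Psmb8, Psme1 and Psmb9 lie far to the left with no called peak, and in shSMRT 11 peaks are called lower while Psme3, leftmost, is not among them.

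Over all 89 peaks within 50 kb, 5 were higher and 2 lower in shNCOR, where 4.58% and 4.00% of all tested peaks were called. In shSMRT 4 were higher and 14 lower, against 6.81% and 10.9%. Scaling weighed on the second count, since 8 peaks were lower under TMM scaling and 6 under quantile normalization, and the share of higher peaks among all called ones moved from 38.5% to 57.6% and 56.7%. In shNCOR that share was 53.4%, 42.8% and 44.9%. Leaving out 1 library moved the 14 lower peaks to 6 (without shGFP 1), 5 (without shGFP 3), 9 (without shSMRT 1) or 6 (without shSMRT 3). The 5 higher peaks in shNCOR became 2 without shGFP 1 or shNCOR 3 and 3 without shGFP 2 or shGFP 3, and the 2 lower ones became 1 without shGFP 1 or shGFP 3. Between the knockdowns 2 peaks were higher and 21 lower in shSMRT, against 6.93% and 17.5%, and the lower count was 8 under TMM scaling and 1 under quantile normalization. The share of higher peaks among all called ones was 28.4%, 54.3% and 59.7% there. The higher peaks lay at -9871 bases from Psma5 and 26785 bases into Psmb7. The higher count was 1 without shNCOR 1, shSMRT 1 or shSMRT 3 and 0 without shNCOR 2.

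The peaks with the largest changes lay away from the start sites, and a peak assigned to a gene by distance need not act on it. At Psmc1, which encodes an ATPase, a peak in an intron 3882 bases from the start site (chr12:100116022-100116405) was at 34.7, 29.1 and 39.6 in shGFP, 77.9, 59.4 and 92.6 in shNCOR and 88.3, 102 and 73.6 in shSMRT. It rose by 1.04 ± 0.20 in shNCOR and 1.23 ± 0.20 in shSMRT (adjusted p = 0.000296 and 9.29e-06). A second peak, at -22921 bases from the start of Psmc1 (chr12:100089194-100089626), was at 70.4, 44.1 and 67.3 in shGFP, 99.0, 99.0 and 121 in shNCOR and 123, 126 and 140 in shSMRT (0.78 ± 0.16 and 1.06 ± 0.16, adjusted p = 0.000696 and 2.68e-06). In both peaks the control lay below every knockdown library, while Psmc1 RNA was lower in both knockdowns.

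A peak 19071 bases from the start of Psmb3 (chr11:97722274-97722737), in an intron of another gene, was at 6.71, 18.8 and 6.45 in shGFP, 31.7, 16.5 and 36.8 in shNCOR and 49.8, 47.6 and 55.2 in shSMRT. It rose by 1.92 ± 0.32 in shSMRT (adjusted p = 1.96e-05). Its 1.12 ± 0.32 in shNCOR (0.0195) lost the call without shGFP 1 (0.0944), shGFP 3 (0.103), shNCOR 1 (0.0762) or shNCOR 3 (0.105). A neighbour at 15086 bases (chr11:97718357-97718684), in an exon of that other gene, went down, from 52.5, 85.3 and 97.8 to 30.4, 31.4 and 33.0 in shNCOR (-1.15 ± 0.25, 0.00125). In shSMRT it was at 35.7, 61.3 and 26.9, and that call (-0.88 ± 0.25, 0.00940) was lost without shGFP 2 (0.0580), shGFP 3 (0.1005) or shSMRT 3 (0.0878).

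A peak at -40491 bases from Psma1 (chr7:114316445-114316770) rose in shSMRT from 68.2, 75.0 and 68.2 to 104, 124 and 119 (0.67 ± 0.16, adjusted p = 0.00151), the opposite direction to Psma1 RNA. In shNCOR it was at 85.8, 95.7 and 124, and that call (0.49 ± 0.16, 0.0373) was lost without shGFP 1 (0.106), shGFP 2 (0.0659), shGFP 3 (0.115) or shNCOR 3 (0.229). The fifth peak called higher in shNCOR lay at -12200 bases from Psmd4 (0.63 ± 0.17, 0.0129). A peak 44532 bases from Psma6 was called lower in both knockdowns (-0.86 ± 0.28 and -0.85 ± 0.28). Both of its calls were lost without shGFP 1 (0.174 in shNCOR and 0.140 in shSMRT) or shGFP 3 (0.206 and 0.144), that in shNCOR also without shNCOR 3 (0.211), and that in shSMRT also without shSMRT 2 (0.0755) or shSMRT 3 (0.0851).

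**Figure D5:**
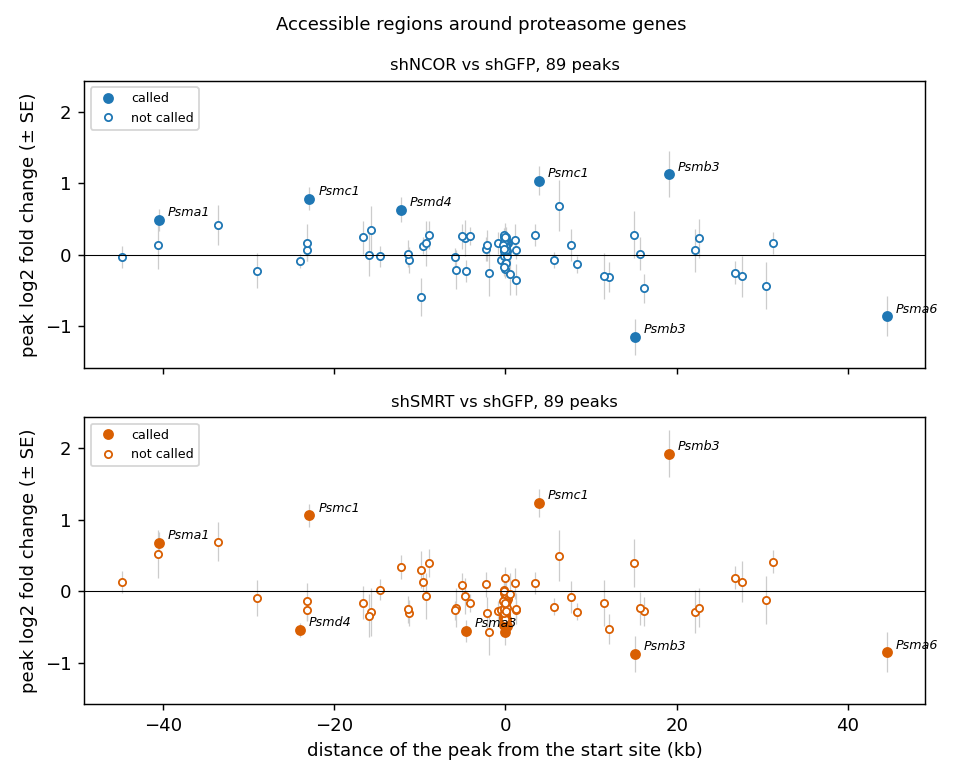
Log2 fold change (± SE) of the 89 peaks against their distance from the assigned start site in kb, for shNCOR (top) and shSMRT (bottom), with filled points called and those beyond 1 kb named by gene. The called peaks at Psmc1 and a peak at Psmb3 rise in both panels, while another peak at Psmb3 falls in both. In shSMRT most of the called lower peaks gather at the start site.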

How the data were processed

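Of 72 samples in the series, 18 were used (9 RNA-seq and 9 ATAC-seq libraries, 3 per hairpin) and 54 were not analysed here. Groups and replicate numbers came from the sample titles, which name the hairpins although the ATAC protocol text speaks of wild-type cells. The authors deposited RPKM values (headed FPKM), made per the file headers with HOMER over exons of 1 transcript per gene, mm10, both strands, so overlapping genes cannot be told apart. For ATAC the authors deposited a table of merged peaks whose values are read numbers after scaling to 10 M, also HOMER and mm10 per the file headers. Its decimal commas were read as points, and 1 peak with a cell that holds no number was left out. Any shift of reads for the transposase was not given in the sources used here. Tools listed in the submitters' processing notes are Bowtie2, HOMER, DESeq2, MACS2 and HISAT2, with mm9 beside mm10 and no roles. Low values were whole multiples of 1 read in 99.96% or more of cases (within 0.1 read), which gave each library's depth. No pair of replicates agreed within sampling noise.

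Genes reaching 1 RPKM, or peaks reaching 10, in 3 or more libraries entered 1 limma fit per assay over all 9 libraries (limma 3.58.1, R 4.3.3, mean-variance trend) of log2(RPKM + 1) or log2(value + 5), which understates the change of low features. Adjustment was over all genes or peaks of a contrast. Ratios of paired subunits used RPKM + 1 and exact permutation tests (scipy 1.17.1), and figures matplotlib 3.10.9. The fits were tested on simulated data. Alternatives were other pseudocounts, filters and scalings, a replicate block, only the 6 libraries compared, leaving out each library, a 10 kb window, limma voom on recovered reads and, added after the data were seen, removal of the exon length trend.

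The members and lists were chosen with earlier results of these data known. Named are the catalytic subunits, Psme1 and Psme2, the called genes with the highest and lowest fold change per class or list and knockdown, Tap1, Tap2, Nfe2l1 and Psmf1, the start-site peaks of named genes and the 3 most raised and lowered peaks per knockdown, with exceptions to a count of 5 or fewer. Psmd10 and the pair of peaks higher between knockdowns were named after their values were seen. Some genes meeting this rule do not appear in the text. Promoters came from RefSeq (GRCm38.p6).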

Additional observations from a re-analysis of the deposited data

How the results depend on the processing

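Over the alternatives run, the counts of members called lower in RNA stayed within 1.5 times those reported: 10 to 19 in shNCOR, 27 to 35 in shSMRT and 20 to 31 between the knockdowns. Members called higher in shNCOR were 1 in place of 0 under quantile normalization, 1 with the replicate block and 1 with the exon length trend removed. With that trend removed 2 were higher in shSMRT, and between the knockdowns 5 were higher under quantile normalization. Under quantile normalization Psmb1 in shSMRT (0.0075) and, between the knockdowns, Psmc1 (0.016), the start-site peak of Psme2 (0.028) and that of Psmd4 (0.015) turned positive. Values that were called in neither setting changed sign in 64 of 3081 cases.

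Of the member peaks in shNCOR, 1 was lower with a pseudocount of 1, no filter, a filter of 40 or quantile normalization, and leaving out single libraries gave 2 to 5 higher and 1 to 2 lower. In shSMRT 8 were lower under TMM scaling, 6 under quantile normalization and 5 to 10 with a library left out. Between the knockdowns 8 and 1 were lower, 1 was higher with limma voom, and 0 to 3 were higher with a library left out. Within 10 kb 1 peak was higher and 0 lower in shNCOR, 1 higher in shSMRT and 1 higher between the knockdowns. For the Psmb10 to Psmb7 ratio the spread of the 3 group means was 0.27 to 0.40 with a library left out.

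Replicate numbers gave no steady sign of pairing: correlations of same-numbered deviations ran from -0.060 to 0.105 in RNA and -0.043 to 0.022 in ATAC. Between shSMRT and shGFP in RNA every library correlated best with its own number (0.040, 0.034 and 0.020). In the other comparisons not every library did. With the replicate block 19 members were lower in shNCOR, 35 in shSMRT and 31 between the knockdowns, and Psmb5 in shSMRT (adjusted p = 0.0383) and, between the knockdowns, Psmb1 (0.0238) and Psme2 (0.0342) were called. At 6.06 to 10.84 M reads per ATAC library, a change small beside the standard error of 0.22 at the Psmb8 start-site peak was not detectable there.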
